A study of Homo sapiens with 6 samples.

Results

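The p53 target genes of apoptosis examined here are FAS, TNFRSF10B, BAX, BBC3, PMAIP1, TP53I3 and AEN, and their members in the data are the ChIRP-seq peaks that touch 1 of 7 gene windows. The windows were set by gene, not by any peak value, but with earlier results of these data known. Together they span 190.007 kb of hg19. They held 28 of the 314001 peaks of the 4 peak lists on chromosomes 1 to 22 and X. ChIRP-seq recovers DNA that is crosslinked to an RNA by hybridising biotinylated oligonucleotides to that RNA, here DINO, a long noncoding RNA made after DNA damage. All samples were U2OS cells, an osteosarcoma line of human origin whose p53 is wild-type, exposed for 24 h to 0.2 µg/mL doxorubicin, a drug that damages DNA, and crosslinked with glutaraldehyde. Chromatin was either untreated or treated with RNase, and each kind was captured with the even and with the odd probes, which are 2 independent sets of oligonucleotides. Each of these 4 groups was 1 library of 1 cell line, so there is no replicate spread and the libraries were not tested against each other. All groups had received doxorubicin, so a comparison with undamaged cells was not part of the design. The labels also list 2 input samples, which were not analysed here.

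The transcription factor p53 is stabilised by DNA damage and switches on genes that arrest the cell cycle or start apoptosis. FAS and TNFRSF10B are death receptors of the cell surface, which start caspase activation from outside the cell. BAX, BBC3 and PMAIP1 belong to the BCL-2 family and act at the mitochondrion, where BAX permeabilises the outer membrane and the BH3-only proteins PUMA (BBC3) and NOXA (PMAIP1) favour that step. TP53I3 encodes the oxidoreductase PIG3, and AEN a nuclease that enhances apoptosis. The study asked whether DINO meets regulatory elements of genes, and the RNase-treated libraries were its control for DNA recovered without RNA. The peak lists hold no expression values, so how strongly these genes responded in the cells cannot be read from them.

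RefSeq promoters (250 bases before the start site to 50 after it, build GRCh38.p14) were found for 6 of the 7 genes, 8 sequences in all because FAS had 3. The peaks are on hg19 and were not placed on these sequences. They are shown to give the regulatory DNA of FAS and AEN, the members whose promoter held the p53 consensus decamer, and of BBC3, whose window had the most peaks. Capitals mark the exact match to the decamer, which is a p53 half-site, so 1 match by itself is not a full p53 site. Half-sites that depart from the consensus were not searched for, also not in the bases next to a match. Whether these sequences hold a full p53 site was therefore not analysed. The consensus is a pattern that is its own reverse complement, so a search of 1 strand covers both, although a single match need not read the same on each.
FAS, chr10:88991181-88991480, plus strand: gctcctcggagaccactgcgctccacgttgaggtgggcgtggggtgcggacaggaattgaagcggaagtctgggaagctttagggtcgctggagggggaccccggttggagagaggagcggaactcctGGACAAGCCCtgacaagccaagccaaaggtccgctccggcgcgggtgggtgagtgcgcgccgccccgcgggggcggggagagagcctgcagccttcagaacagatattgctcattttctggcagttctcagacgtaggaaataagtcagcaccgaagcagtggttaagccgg
AEN, chr15:88621090-88621389, plus strand: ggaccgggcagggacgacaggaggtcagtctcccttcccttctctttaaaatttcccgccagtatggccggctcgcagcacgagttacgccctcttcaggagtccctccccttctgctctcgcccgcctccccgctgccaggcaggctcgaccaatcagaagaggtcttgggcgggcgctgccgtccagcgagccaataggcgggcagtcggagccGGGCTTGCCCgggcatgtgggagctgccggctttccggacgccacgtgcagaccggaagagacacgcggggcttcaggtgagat
BBC3, chr19:47232618-47232917, minus strand: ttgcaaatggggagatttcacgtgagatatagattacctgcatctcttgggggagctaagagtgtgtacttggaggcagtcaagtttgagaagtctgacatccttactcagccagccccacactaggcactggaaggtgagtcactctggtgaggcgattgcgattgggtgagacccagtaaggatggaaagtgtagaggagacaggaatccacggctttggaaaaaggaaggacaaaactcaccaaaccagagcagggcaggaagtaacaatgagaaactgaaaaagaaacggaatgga
The decamer began 122 bases before the start site in this FAS promoter and 34 bases before it in the AEN promoter, and it was in neither of the other 2 FAS promoters. It was found in 2 of the 8 promoters of the members and in 6.63% of all 35116 promoters of 300 bases. The other 2 FAS promoters overlap each other, so the 8 are not independent. The BBC3, BAX, TP53I3 and PMAIP1 promoters had no match, which says only that these letters are not in these 300 bases. The G and C content was 48.0% in the BBC3 promoter, 54.3% in TP53I3, 71.3% in PMAIP1, and between 62.7% and 67.3% in the others, with a median of 58.7% over all promoters.

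The untreated even list had a peak in 6 of the 7 windows and the untreated odd list in none, which is set beside neighbouring DNA below. The untreated even list had 6 peaks at BBC3, 2 at TP53I3, 1 each at FAS, TNFRSF10B, BAX and AEN, and 0 at PMAIP1, which makes 12. The untreated odd list, which is shorter than the even one (34695 against 105669 peaks), had 0 peaks in the 190.007 kb. The RNase-treated even list had 13 peaks in the windows and the RNase-treated odd list 3. The plot of the peaks across the windows gives each one with its fold enrichment, the peak caller's linear ratio of signal to modelled background at the summit, made by the authors within each list.

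**Figure D1:**
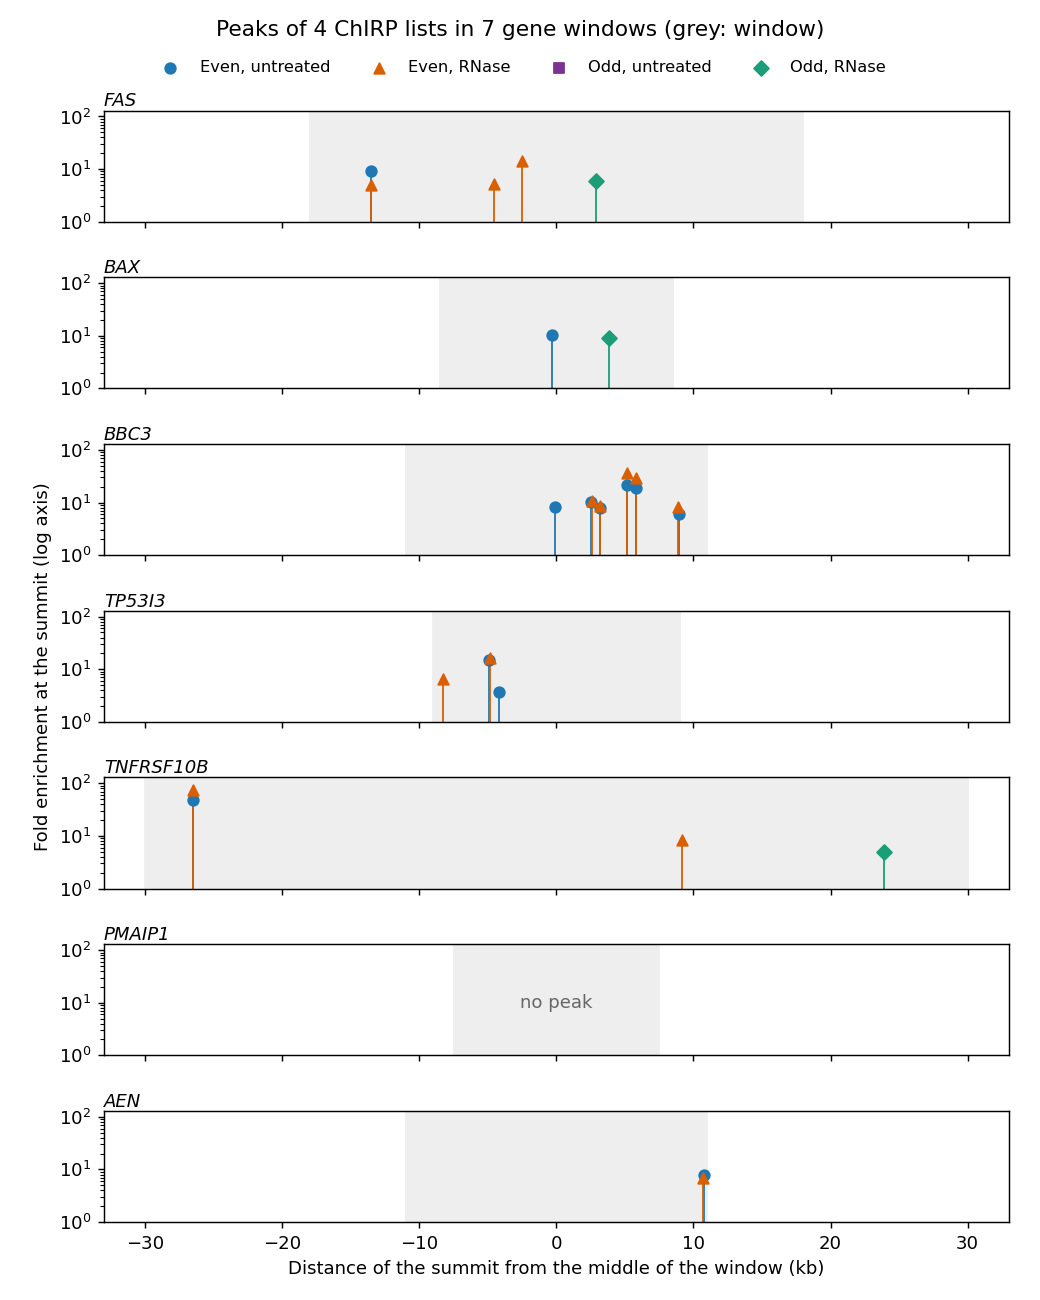
Each panel is 1 gene window (grey), with the distance of each peak's summit from the middle of the window in kb on the horizontal axis and the fold enrichment on a log vertical axis. Circles are untreated even, triangles RNase-treated even and diamonds RNase-treated odd peaks; the untreated odd list has no peak in any panel. The BBC3 panel holds 6 untreated and 5 RNase-treated even peaks, and the PMAIP1 panel holds none.

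The windows were set beside windows of the same lengths moved along their chromosomes by 0.2 to 2 Mb in steps of 0.2 Mb to either side, 20 moves in all. These show how many peaks such lengths of neighbouring DNA hold and are a description, with no p-value. The 12 untreated even peaks compare with a median of 8 over the moves (range 4 to 17), and 4 of the 20 moves had 12 or more. The 13 RNase-treated even peaks compare with a median of 8.5 (range 4 to 16). The total of either even list thus lay above the median and inside the range of the moved windows. The 0 untreated odd peaks compare with a median of 3 (range 0 to 5), and 1 of the 20 moves also had 0. The 3 RNase-treated odd peaks compare with a median of 4 (range 2 to 8). Window by window, the moved copies had no untreated even peak in 2 (TNFRSF10B) to 13 (PMAIP1) of the 20 moves. They had no untreated odd peak in 8 (TNFRSF10B) to 18 (TP53I3 and PMAIP1) of the 20. Neighbouring DNA thus also had an untreated even peak more often than an untreated odd one.

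**Figure D2:**
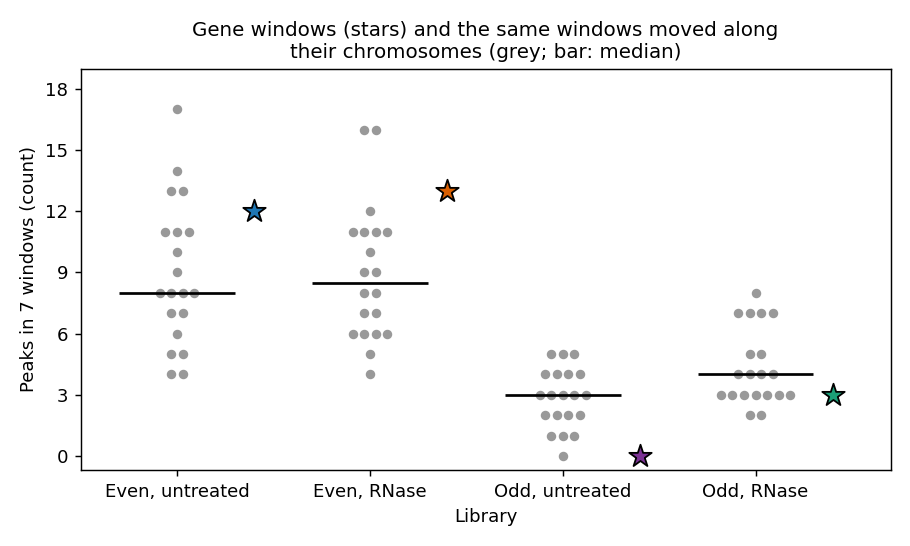
The vertical axis is the number of peaks in all 7 windows, for the 4 libraries on the horizontal axis; stars are the gene windows, grey points the 20 moves, and bars the median of the moves. The stars are at 12 and 13 for the even and at 0 and 3 for the odd lists, and each is within the range of its moved windows.

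Most of the excess over the median lay in the BBC3 window. Without its window, left out after its count was seen, the other 6 windows had 6 untreated even peaks, against a median of 7 over the moves (range 3 to 15), and 8 RNase-treated even peaks, also against a median of 7 (range 4 to 15). At BBC3 itself the 20 moved windows had a median of 1 untreated even peak and at most 4, and none had as many as 6. The RNase-treated even list was alike, with 5 peaks against a median of 1 and at most 4. With the same number of strongest peaks in each list, BBC3 had 2 in either even list. Its moved windows were not counted separately at that setting, so whether BBC3 then still exceeds them is not known. In both odd lists it had 0, as did 15 of its 20 moved windows in the untreated and 14 in the RNase-treated odd list.

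**Figure D3:**
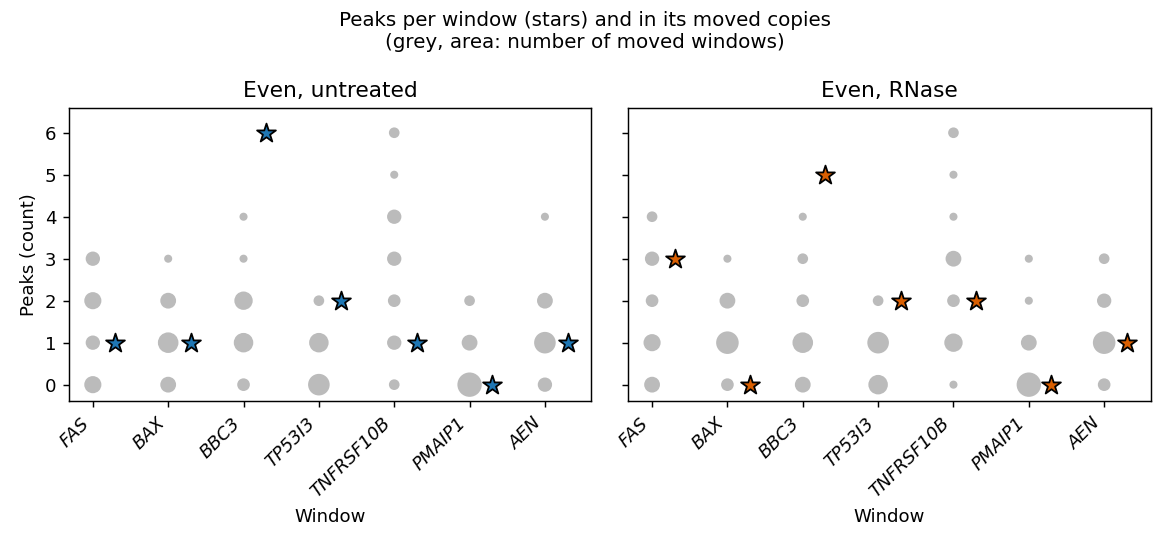
For each gene window, the star gives the number of even peaks and the grey discs the numbers in its 20 moved copies, with the area of a disc proportional to how many copies had that number; the left panel is the untreated and the right panel the RNase-treated list. BBC3, with 6 and 5 peaks, is the window whose star lies above all of its moved copies, none of which has more than 4.

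The windows of the death receptor genes held the strongest peak of all 7 windows, at the edge of the TNFRSF10B window, and mostly weak ones besides. In the 60.001 kb TNFRSF10B window (chromosome 8, 22872000 to 22932000) the untreated even list had 1 peak at 22875270 to 22875714, with a fold of 47.8 and a −log10 q-value of 158. Of the untreated even list, 95.5% of peaks had a lower fold. The same place was a peak of the RNase-treated even list, at 22875228 to 22875716 with a fold of 74.0, above 95.9% of its list. The position was therefore recovered strongly by the even probes in either RNase state, and it lay 3270 bp from the lower edge of the window. TNFRSF10B is 48899 bp long in the GRCh38.p14 gene table, so the window also holds other DNA. Whether this peak lies in TNFRSF10B or in other DNA of the window was not analysed here. The nearest odd peaks were 10603 bp (untreated) and 10550 bp (RNase-treated) away, outside the window. After RNase there was a further even peak (22911153 to 22911320, fold 8.35) and an odd peak (22925749 to 22925915, fold 4.88). Neither has an untreated counterpart, and the odd one is among the weakest of its list, with 2.91% of peaks lower. The moved TNFRSF10B windows had a median of 3 untreated even peaks (range 0 to 6), against the 1 found. For the RNase-treated lists the count equalled the median of the moves, 2 in the even and 1 in the odd list.

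At FAS (chromosome 10, 90745000 to 90781000) the untreated even list had 1 peak, at 90749402 to 90749551 with a fold of 9.37, which is higher than 40.7% of its list. The RNase-treated even list had the same position, at 90749420 to 90749564, with a fold of 4.98, higher than 3.602% of that list. Folds are set by each library's own background, so the lower value after RNase does not measure a loss. RNase-treated chromatin gave 2 more even peaks, at 90758376 to 90758507 (fold 5.15) and 90760433 to 90760622 (fold 14.1). The RNase-treated odd list had 1 peak at 90765841 to 90765968, with a fold of 5.90, which was 5219 bp from the nearest even peak. More of the FAS peaks were therefore in the RNase-treated lists, 4 against 1 untreated over both probe sets. The RNase-treated lists are also longer (116171 against 105669 even and 57466 against 34695 odd peaks). When a −log10 q-value of at least 10 was required, FAS had 1 peak in either even list and 0 in either odd list. The moved FAS windows had medians of 1.5 untreated even (range 0 to 3), 1 RNase-treated even (0 to 4) and 1 RNase-treated odd peak (0 to 4), so all 3 counts were within the ranges of the moves, and the RNase-treated even count of 3 was above its median. The gene is 53010 bp long in the GRCh38.p14 table, where it overlaps the smooth muscle actin gene ACTA2, and the window of 36001 bp does not cover that length.

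The BCL-2 family genes ranged from the most peaks to none. In the BBC3 window (chromosome 19, 47719000 to 47741000) the untreated even peaks covered 1390 bp of a 9175 bp stretch. The highest was at 47734904 to 47735247 with a fold of 21.6, and the second, at 47735629 to 47735930, had a fold of 18.6. Their summits were 716 bp apart, and they stood above 79.0% and 74.0% of the list. The other 4 began at 47732437, 47729790, 47733071 and 47738841 and had folds of 10.1, 8.38, 7.82 and 6.10, each below the median of 10.9 of the list. BBC3 thus had a strong pair of peaks among weaker ones.

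The same pattern was present after RNase. The RNase-treated even list had the pair at 47734857 to 47735327 and 47735621 to 47735959, with folds of 36.4 and 29.6, which stood above 86.0% and 81.6% of that list. It also had peaks at 47732470, 47733054 and 47738842, with folds of 10.6, 8.42 and 8.32. The summits of these 5 peaks lay 10 to 26 bp from their untreated counterparts. The peak at 47729790 to 47729933 was the only BBC3 peak without a counterpart, and the nearest RNase-treated even peak was 2537 bp away. The nearest odd peak to any of the untreated BBC3 peaks was 18332 bp away, in the RNase-treated list, and 18342 bp in the untreated list.

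In the BAX window (chromosome 19, 49453000 to 49470000) the untreated even list had 1 peak at 49461099 to 49461250, with a fold of 10.5, higher than 47.8% of its list. The RNase-treated even list had none there, and its nearest peak was 13006 bp away. The RNase-treated odd list had 1 at 49465219 to 49465357, of fold 8.91, which was 3969 bp from the even peak and had no untreated odd counterpart. The untreated even BAX peak was thus absent from the 3 other lists, and so was the RNase-treated odd one. The moved BAX windows had 0 untreated even peaks in 5 of 20 and 0 RNase-treated even peaks in 3 of 20, so both 0 and 1 occurred in neighbouring DNA of this length.

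The PMAIP1 window (chromosome 18, 57562000 to 57577000) was the shortest and had 0 peaks in all 4 lists. Its moved copies had 0 in 13 of 20 in the untreated even, 13 in the RNase-treated even, 18 in the untreated odd and 16 in the RNase-treated odd list, so an empty window of this length is the most frequent outcome. The nearest even peaks ended 12965 bp (untreated, fold 15.3) and 12883 bp (RNase-treated, fold 24.7) below the window. The nearest odd peaks ended 12299 bp (untreated, fold 34.1) and 12287 bp (RNase-treated, fold 82.6) below it. The even and odd peaks there did not overlap each other.

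TP53I3 and AEN had 1 position each that the even probes recovered in both RNase states. In the TP53I3 window (chromosome 2, 24295000 to 24313000) this was at 24298996 to 24299189 without RNase, with a fold of 14.9, and at 24299018 to 24299230 with RNase, with a fold of 16.7. Their summits were 7 bp apart, and they were higher than 65.1% and 64.7% of the respective lists. The untreated list had a further peak at 24299800 to 24299922, with a fold of 3.65 and a −log10 q-value of 2.76, which is close to the lowest value in the 4 lists, 2.01. It had no RNase-treated counterpart, and 0.0445% of its list had a lower fold. The RNase-treated list had a peak of its own at 24295661 to 24295818, with a fold of 6.46. The nearest odd peak was 91769 bp from the window, in the RNase-treated list. In the GRCh38.p14 gene table FAM228B overlaps TP53I3, and the gene SF3B6 lies 1106 bp below it. TP53I3 is 7402 bp long there and the window is 18001 bp. Whether these peaks lie in TP53I3 or in other DNA of the window was not analysed here.

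In the AEN window (chromosome 15, 89159000 to 89181000) the even peak was at 89180654 to 89180790 without RNase, with a fold of 7.995, and at 89180607 to 89180777 with RNase, with a fold of 6.86. It lay 210 bp and 223 bp from the higher edge of the window, so a slightly shorter window would have had no peak. The next gene on that side in the GRCh38.p14 table is ISG20, which encodes an exonuclease induced by interferon. AEN itself is 27599 bp long in that table and the window is 22001 bp, so part of the gene may lie outside it.

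The design uses RNase to ask which recovery needs RNA. In the whole untreated even list, 80.9% of peaks shared at least 1 bp with a peak of the RNase-treated even list. In the 7 windows 9 of the 12 did, which is 75.0% (Wilson 95% interval 46.8 to 91.1, counting error only, with neighbouring peaks taken as independent). In the moved windows it was 145 of 179, or 81.0% (74.6 to 86.1). The share at the apoptosis genes was thus within counting error of that in the whole list and in the neighbouring DNA. The 3 untreated peaks without a counterpart were those at BAX, at the BBC3 position 47729790 and at the weak TP53I3 position, with folds of 10.5, 8.38 and 3.65. All 3 were below the median fold of the list, and in the whole list the 20207 peaks without a counterpart had a median fold of 7.14, against 12.7 for those with one.

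Seen from the RNase-treated even list, 9 of its 13 peaks in the windows overlapped an untreated even peak, which is 69.2% (42.4 to 87.3), against 73.5% over the whole list. The 4 that did not were 2 at FAS, 1 at TNFRSF10B and 1 at TP53I3. The counts of peaks found in only 1 RNase state were thus 3 without and 4 with RNase in the even set. Of the 3 RNase-treated odd peaks none overlapped an untreated odd peak, against 55.2% over the whole RNase-treated odd list. The Wilson 95% interval for 0 of 3 is 0 to 56.1%, which just includes the 55.2%. These peaks are too few to show a departure from the whole list. The summits of the 9 overlapping even pairs were 7 to 29 bp apart (median 17), and the median over the whole even lists was 20 bp.

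Both probe sets target the same RNA, and no position in the windows was recovered by both. Of the 12 untreated even peaks, 0 overlapped a peak of the untreated odd list, against 1.23% over the whole list, and 0 overlapped a peak of the RNase-treated odd list, against 1.64%. After RNase, 0 of the 13 even peaks overlapped an odd peak, against 1.61%, and so 0 of the 3 odd peaks an even one, against 3.28%. By the rule that a count of 0 allows up to 3 counts, 0 of 12 allows a share of up to 25.0% and 0 of 13 up to 23.1%. These windows are thus too few to show fewer shared positions than elsewhere. Of the 140 moved windows, 2 had a region of both sets without RNase and 4 with RNase. For scale, the strongest untreated odd peak, the region taken as the DINO locus on chromosome 6, had a peak in all 4 lists, with folds of 121 (even) and 186 (odd) without RNase and 191 and 300.1 with RNase. That locus was picked by its untreated odd fold, so this fold is high by choice. Probes against DINO can also pair with the DNA of its gene, and whether recovery at that locus needs RNA was not tested.

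Odd peaks were present close to several windows, although none of the untreated ones touched a window. Within 15 kb of the windows, a distance chosen after the windows were seen to be empty, there were 5 untreated odd peaks, 4 of them within 10 kb. The nearest was at 49471418 to 49471753, which is 1418 bp above the BAX window, with a fold of 36.4, and it had a fold of 52.2 in the RNase-treated odd list. Next was 1 at 89155411 to 89155531, 3469 bp below the AEN window (fold 6.73, and 21.6 after RNase). A pair at 22864228 and 22864497 lay 7644 and 7333 bp below the TNFRSF10B window (folds 7.89 and 18.9), where the RNase-treated list had 1 wider peak (fold 39.8). The fifth was the peak below PMAIP1. All 5 overlapped an RNase-treated odd peak, as did 91.6% of the untreated odd list. None of the 5 overlapped an even peak in either RNase state, and over the list 3.78% overlapped an untreated even one. For scale, the untreated odd list had 0.114 peaks per 10 kb over the chromosomes. The moved windows had a median of 3 in 190.007 kb. The flanks are 15 kb on either side of 7 windows, and whether they hold more odd peaks than other DNA was not tested.

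By their median, the peaks in the windows were weaker than their lists, with the strongest peak of the TNFRSF10B window and the BBC3 pair far above that median. The median fold of the 12 untreated even peaks was 9.76, against 10.9 over the list and 11.1 over the 179 peaks of the moved windows, and 4 of the 12 were above the median of the list. For the 13 RNase-treated even peaks it was 8.42, against 11.8 over the list and 12.4 over the moved windows, with 5 of 13 above the list's median. These differences were not tested, and the BBC3 window alone gave 6 of the 12 and 5 of the 13 peaks. The 3 RNase-treated odd peaks had folds of 4.88, 5.90 and 8.91, all below the list's median of 10.96. Peaks above the median of either even list came from the windows of BBC3 (the pair), TNFRSF10B and TP53I3, and after RNase also from that of FAS. The median width was 151 bp without RNase in the even list, against 186 bp over that list, and 171 bp against 192 bp with RNase. The widest, in the TNFRSF10B window, was 445 bp without and 489 bp with RNase.

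**Figure D4:**
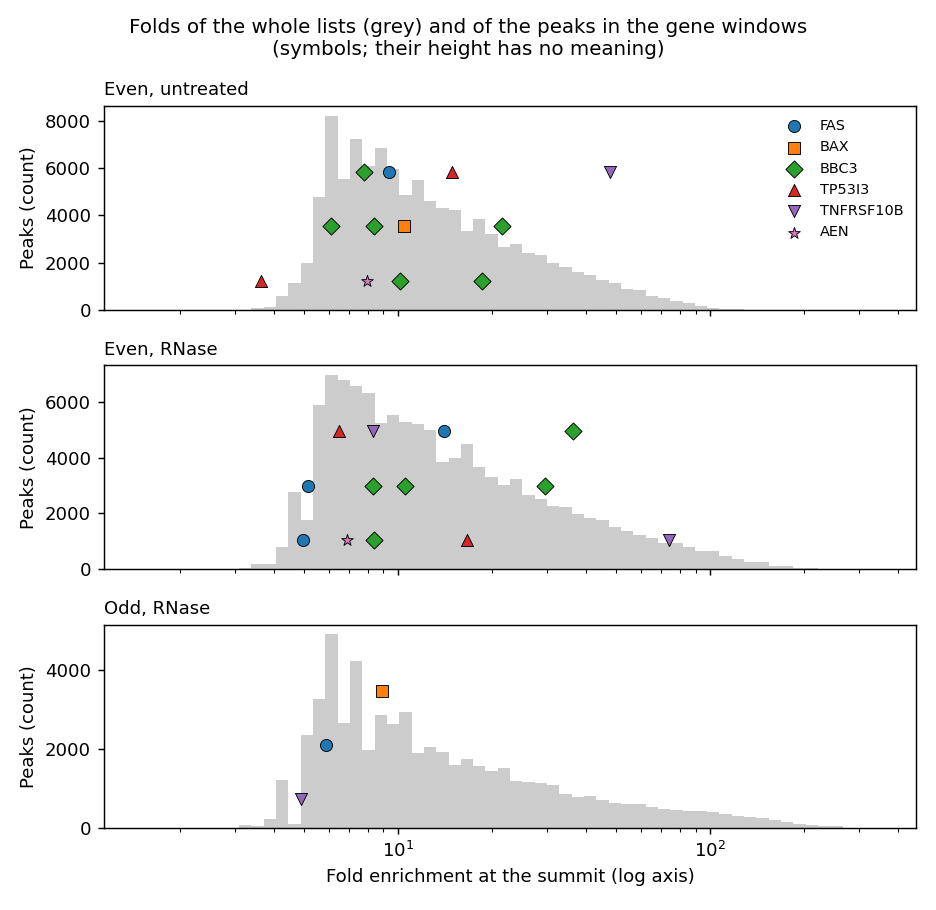
Grey shows how many peaks of the whole list (vertical axis, count) have each fold enrichment (horizontal log axis), for the untreated even, RNase-treated even and RNase-treated odd lists from top to bottom; symbols mark the folds of the peaks in the gene windows, and their height has no meaning. The strongest peak of the TNFRSF10B window (47.8 and 74.0) and the BBC3 pair (21.6 and 18.6 without RNase) stand to the right of most of their lists. The 3 odd peaks stand to the left of the median of 10.96.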

How the data were processed

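DINO ChIRP-seq peaks of 4 libraries were used, 1 for each probe set and RNase state. Per the submitters' processing notes, Bowtie, MACS2 and hg19 were used; for versions, threshold and control library, the sources used here state nothing. Peak names carry 1 library each, so the authors called peaks per library. The deposited lists have the narrowPeak layout: a score (10 times the −log10 q-value), the fold enrichment as a linear ratio, and −log10 values of p and q, all the authors' values. Read depth is unknown, so counts of peaks are not amounts of DNA, and Wilson 95% intervals cover counting error only.

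Peaks on chromosomes 1 to 22 and X were counted in each window when at least 1 bp lay inside, with coordinates 1-based. Python 3.11.15, numpy 2.4.6, pandas 2.3.3, scipy 1.17.1 and matplotlib 3.10.9 were used. Counting was tested on 11528 simulated peaks, where all 16 planted overlapping pairs were recovered. The members, windows and lists were chosen with earlier results of these data known. Every peak of the windows is described; the rule for naming asked for those of the untreated lists. The promoter motif and the odd peaks beside the windows were added later. Alternatives were other thresholds, overlaps, list lengths, window extents and steps of the moves. A list of other apoptosis genes was not counted, since gene positions on hg19 were not used here, and peaks were not assigned to exons, introns or promoters for the same reason.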

Additional observations from a re-analysis of the deposited data

Results flagged for a closer look

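The BAX window changed in opposite directions with RNase in the 2 probe sets. The even set went from 1 peak to 0, a change of -1, and the odd set from 0 to 1, a change of 1. The 2 peaks were at different positions, 3969 bp apart, and the RNase-treated odd list is longer than the untreated one (57466 against 34695 peaks). With equal numbers of strongest peaks the BAX window had 0 peaks in either even list, so the even set then showed no change. The odd set still had 0 without and 1 with RNase. With 1 library in each group this difference was not tested.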

How the results depend on the processing

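Of 48 recomputed values, 37 were within 1.5 times the value reported and 11 were not. Some of the 37 could not differ, since stricter thresholds or fewer windows cannot change a count of 0. With equal numbers of strongest peaks (34695 per list) the windows had 4 untreated even, 4 RNase-treated even and 1 RNase-treated odd peaks, the medians of the moved windows were 3 in both even lists, and 4 untreated even peaks overlapped an RNase-treated one; fewer peaks were used by construction. Windows widened by 10 kb had 25 untreated even, 24 RNase-treated even, 4 untreated odd and 7 RNase-treated odd peaks, over more DNA. When a −log10 q-value of 10 was required, 1 RNase-treated odd peak was left. The count of 0 regions of both probe sets held in the 4 alternatives run for it, in either RNase state. Reciprocal overlap and the q-value threshold could not raise a count of 0. Only the summit distance and the widened windows could have changed it. No paired analysis was possible because each group has 1 library. Depth is unknown, and 28 peaks set the precision.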
